A study of Mus musculus with 12 samples.

Results

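The Vmn1r genes encode type 1 vomeronasal receptors, and 228 of them were examined here against a list of H4K20me3 domains from mouse embryonic stem cells. Members were the RefSeq protein-coding genes of build GRCm38 whose symbol is Vmn1r followed by digits, on chromosomes 1 to 19 and with a start at or past 3 Mb. They are 228 of 20560 autosomal protein-coding genes chosen by the same position rule, and 2 further Vmn1r genes that the table places before 3 Mb were left out. Of the 228, 124 lay on chromosome 7, 51 on chromosome 6, 35 on chromosome 13 and 14 on chromosome 17. Receptors less than 200 kb apart were joined, which gave 15 clusters of 2 or more receptors with 223 members, and 5 single receptors.

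H4K20me3 was profiled by chromatin immunoprecipitation and sequencing in the embryonic stem cell line dTKO. Its genotype is labelled Suv39h1fl/fl; Suv39h2-/-; Setdb1fl/fl, so every group carries the Suv39h2 null allele and the floxed alleles of the other two H3K9 methyltransferase genes. Auxin (100 μg/ml) and dTAG13 (0.5 μM), small molecules that trigger degradation of suitably tagged proteins, were in the medium for 0, 12, 24 or 48 h, and each of these 4 times has 3 replicates, 12 samples in total. The labels do not say which protein carries which tag. The file used here is 1 list of 28210 domains that gives positions only, without sample names or signal, so the loss of the mark over time, the depth and the replicate error could not be measured. All values below describe that single list. Neighbouring receptors share their surroundings and are not independent, and no test was run on them. The identity of the cells could not be checked, since a list of positions holds no expression.

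Type 1 vomeronasal receptors are G protein-coupled receptors of sensory neurons in the vomeronasal organ, where they detect pheromones and other social odours and signal through the G protein subunit encoded by Gnai2. Each such neuron is thought to express a single receptor gene, whose coding sequence is usually 1 uninterrupted exon, and embryonic stem cells are not a place where these receptors are known to act. H4K20me3 is laid down by the methyltransferases Kmt5b and Kmt5c, which HP1 proteins bring to chromatin that carries H3K9me3.

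H4K20me3 domains were frequent inside the Vmn1r clusters, and few receptors met one. The 15 clusters spanned 9.45 Mb and met 226 domains, 23.9 per Mb, where the chromosomes that carry most receptors had 11.3 (chromosome 6), 10.96 (chromosome 7), 12.5 (chromosome 13) and 12.0 (chromosome 17) per Mb. The sequence between receptors makes up 96.3% of the bases of the spans. A count of domains is not on one scale with that share, since a domain of several kb touches a receptor more easily than a single base does. Of the 226 domains, 217 (96.0%) touched no receptor. A further 4 crossed a receptor end, 2 covered a receptor whole and 3 lay wholly inside a receptor body. In all, 14 of the 15 clusters met a domain. The exception was the pair Vmn1r2 and Vmn1r3 on chromosome 4, which spans 13.2 kb. Among receptors, 10 of 228 (4.39%) shared at least 1 base with a domain, against 13.9% of all autosomal protein-coding genes. Vmn1r bodies are much shorter, with a median of 0.924 kb against 17.6 kb. Among the 208 receptors of up to 2 kb, 5 (2.40%) met a domain, close to the 2.54% (8 of 315) of other protein-coding genes of 0.8 to 1.2 kb.

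**Figure D1:**
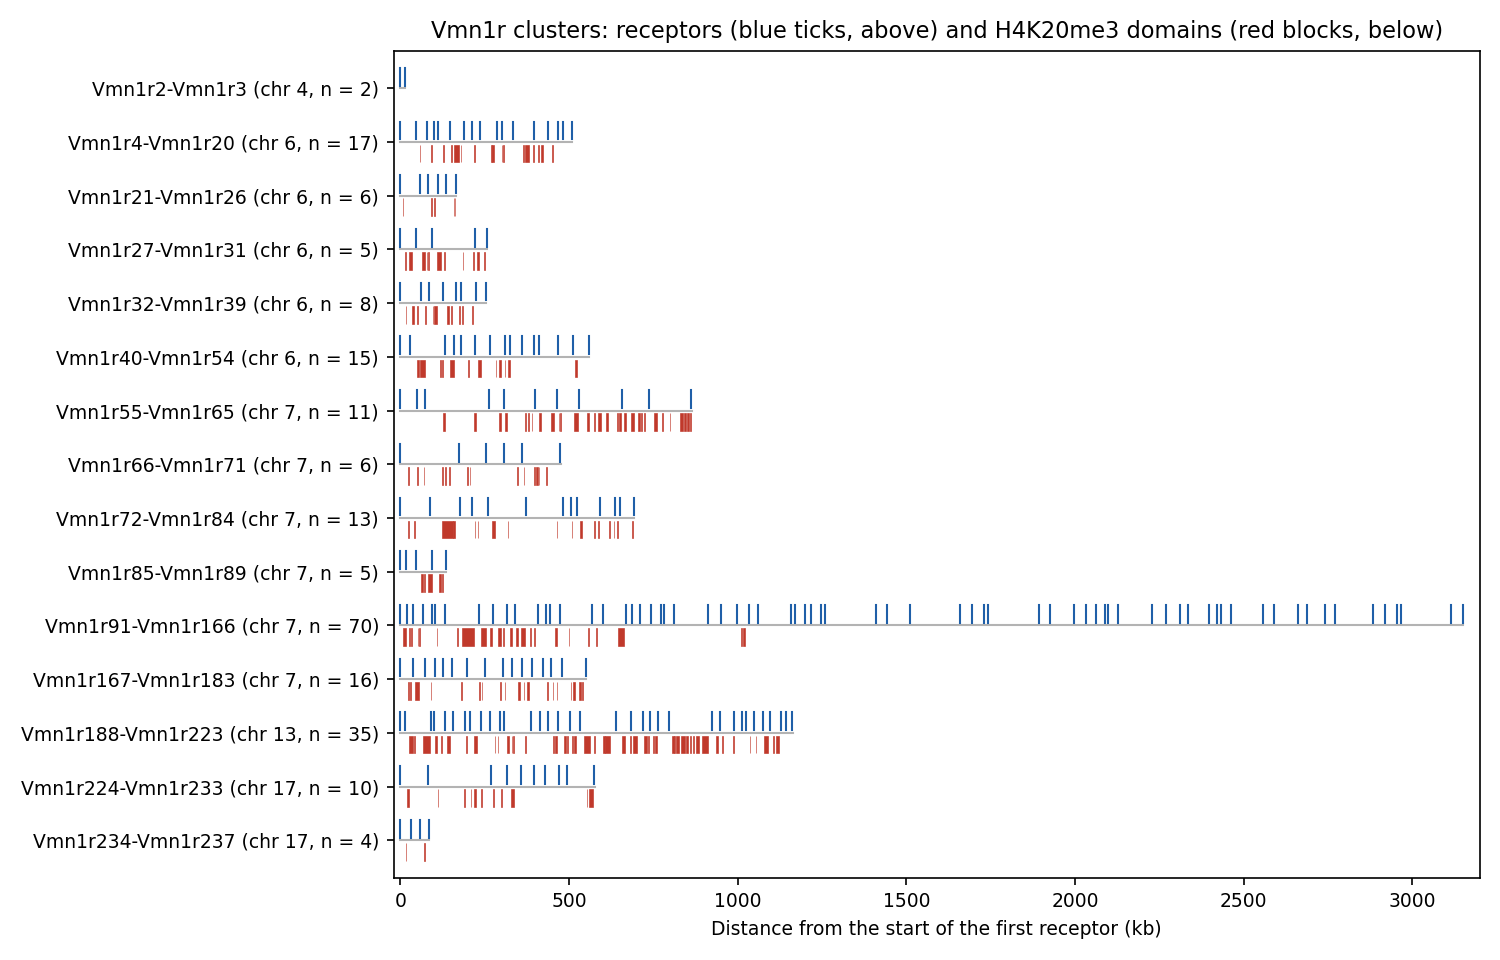
Map of the 15 Vmn1r clusters, drawn to one scale. The horizontal axis is the distance in kb from the start of the first receptor, blue ticks are receptor starts and red blocks below the line are H4K20me3 domains. Domains lie in the spaces between receptors in 14 clusters, and the last 2128 kb of the cluster of 70 receptors hold none.

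Upstream sequence lay in a domain for 4 receptors. RefSeq windows of build GRCm38.p6, which run from 250 bases before to 50 bases after an annotated start, were matched by gene identifier for 205 of the 228 receptors. Of these windows, 4 (1.95%) met a domain, close to the 1.89% of all 31396 autosomal windows. The first codon stands at the annotated start in 180 of the 205 (87.8%), against 5.47% of all windows, so these windows mostly show the sequence before the coding start, and the start of transcription may lie further away. The 250 bases before the start are printed for the 4 receptors whose windows lay wholly inside a domain. They are also printed for Vmn1r208, whose body a domain reaches from the other end, and for Vmn1r43, whose other end stops 110 bases short of one. The strand is that of the gene, and capitals mark each CG pair.
Vmn1r48, chr6:90036842-90037091, minus strand: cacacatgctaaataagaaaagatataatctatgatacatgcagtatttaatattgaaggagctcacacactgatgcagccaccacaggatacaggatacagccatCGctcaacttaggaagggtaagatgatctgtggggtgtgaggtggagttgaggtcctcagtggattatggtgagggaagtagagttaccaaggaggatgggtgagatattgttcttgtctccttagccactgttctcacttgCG
Vmn1r47, chr6:90021638-90021887, plus strand: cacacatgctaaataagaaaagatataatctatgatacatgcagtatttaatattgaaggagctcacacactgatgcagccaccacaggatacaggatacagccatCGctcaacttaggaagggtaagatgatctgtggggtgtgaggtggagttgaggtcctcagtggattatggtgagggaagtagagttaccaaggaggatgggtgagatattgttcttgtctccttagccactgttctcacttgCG
Vmn1r215, chr13:23075542-23075791, plus strand: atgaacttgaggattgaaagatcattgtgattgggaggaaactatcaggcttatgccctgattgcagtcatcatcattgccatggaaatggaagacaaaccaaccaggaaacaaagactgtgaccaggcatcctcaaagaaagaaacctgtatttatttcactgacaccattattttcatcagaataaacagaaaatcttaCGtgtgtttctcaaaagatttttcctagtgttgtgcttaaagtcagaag
Vmn1r1, chr1:182158099-182158348, minus strand: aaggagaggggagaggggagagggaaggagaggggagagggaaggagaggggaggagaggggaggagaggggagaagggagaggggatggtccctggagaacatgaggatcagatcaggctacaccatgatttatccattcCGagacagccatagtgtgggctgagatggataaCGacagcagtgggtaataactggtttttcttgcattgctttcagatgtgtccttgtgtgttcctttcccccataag
Vmn1r208, chr13:22773326-22773575, minus strand: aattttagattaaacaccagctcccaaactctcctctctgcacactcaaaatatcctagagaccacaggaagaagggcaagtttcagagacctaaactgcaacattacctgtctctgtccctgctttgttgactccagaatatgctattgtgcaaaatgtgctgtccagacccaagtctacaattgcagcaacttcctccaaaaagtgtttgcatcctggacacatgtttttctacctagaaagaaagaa
Vmn1r43, chr6:89870530-89870779, minus strand: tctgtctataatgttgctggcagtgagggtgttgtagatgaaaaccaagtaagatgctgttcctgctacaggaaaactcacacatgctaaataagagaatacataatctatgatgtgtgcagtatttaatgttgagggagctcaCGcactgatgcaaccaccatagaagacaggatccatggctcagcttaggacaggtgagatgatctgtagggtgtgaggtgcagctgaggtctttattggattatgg
The Vmn1r48 and Vmn1r47 windows were identical at all 250 bases although the genes stand on opposite strands. Reads from such copies cannot be told apart over this stretch, and no source used here says how the authors placed reads with more than 1 match. The Vmn1r43 window was 58.7% identical to both of them over the 172 bases compared at an offset of 78 bases, without gaps. The Vmn1r1 window stands apart in composition, with 53.2% G and C and repeated runs of purines.

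Upstream sequences of the family were poor in G and C and in CG pairs. The median G and C content of the 205 upstream stretches was 34.8% (quartiles 32.4 and 37.6%), against 52.4% over all windows. The median number of CG pairs was 1 against 6, and 54 of 205 (26.3%) held none, against 7.64%. The letters TATAAA, searched on both strands, were found in 81 of 205 (39.5%), against 12.4% of all windows, and TAATTA in 15 (7.32%), against 4.81%. CCCNNGGG was found in 0 of 205, against 12.0%. No motif contains another of the 3, and a match is only a match of letters in this window. The family's stretches mostly stand before a coding start, which few of all windows do, so these comparisons are of unlike positions. Base composition was not matched either. All fixed letters of CCCNNGGG are G or C, and TATAAA and TAATTA hold neither, so the motif counts are not separate from the G and C content. In the cluster from Vmn1r91 to Vmn1r166, 63 of 68 stretches were at least 90% identical to that of another receptor, so the 205 are not independent.

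The receptors that met a domain fell into 2 kinds, short receptors on which a domain lay at least in part and long annotated bodies that contain or touch a domain. Vmn1r215 (chr13:23075792-23076694) was covered whole by a domain of 3.75 kb, and Vmn1r48 (chr6:90035933-90036841) by a domain of 6.45 kb. Vmn1r1, a single receptor (chr1:182157178-182158098), had 54.1% of its 0.921 kb inside a domain of 5.10 kb that runs on upstream of the gene. Vmn1r47 (chr6:90021888-90022820) had 49.6% inside a domain of only 0.750 kb, the narrowest of the 10. For Vmn1r208 (chr13:22772399-22773325) the share was 16.4%, or 152 bases. These 5 are the only receptors of up to 2 kb that met a domain, and 3 of them were covered over at least 50%. That is 1.32% of the 228 receptors, against 0.642% of protein-coding genes, which are mostly far longer. Among genes of 0.8 to 1.2 kb, 3 of 199 receptors and 8 of 315 other protein-coding genes were covered to this extent, so the order was reversed. Each of the 10 receptors met exactly 1 domain.

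The other 5 are annotated over 3.26 to 23.9 kb, far longer than one receptor exon. Vmn1r63 (chr7:5802345-5826229) had 5.85 kb inside a domain, 24.5% of its 23.9 kb. Vmn1r14 (chr6:57226155-57234350) enclosed a domain of 2.70 kb (32.9%), and Vmn1r5 (chr6:56970335-56986350) one of 1.2 kb (7.49%). A domain reached 0.801 kb into Vmn1r65 (chr7:6007750-6011010), 24.6% of its length, and 0.624 kb into Vmn1r30 (chr6:58434848-58443624), 7.11%. Exons were not available, so whether these domains lie over exons or introns was not determined. Among the 20 receptors longer than 2 kb, 5 (25.0%) met a domain, and 7.26% of their bases were covered, against 1.46% of the bases of the shorter receptors.

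Just outside the 1-base threshold stood Vmn1r88 on chromosome 7, 68 bases from a domain, and Vmn1r43, 110 bases away. Vmn1r79 followed at 0.787 kb, Vmn1r45 at 0.993 kb and Vmn1r82 at 1.05 kb. With 1 kb added at both ends of each receptor, the count rose from 10 to 14, against 15.3% of all protein-coding genes treated the same way. The median distance from a receptor to its nearest domain was 13.4 kb (quartiles 6.29 and 52.0 kb), closer than the median of 39.2 kb over protein-coding genes and of 32.1 kb over other genes of 0.8 to 1.2 kb.

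Within clusters, 3.89% of receptor-body bases lay in domains (13.6 of 349.7 kb), against 11.9% of the sequence between receptors (1084 of 9103 kb), a difference of 8.02 percentage points. The between-receptor share was the higher one in 14 of 15 clusters, and in 9 of these no receptor base was covered at all. The remaining cluster, Vmn1r2 to Vmn1r3, had 0 for both. With receptors of up to 2 kb only, the shares were 1.25% for bodies and 11.6% between them. The smallest difference among the 14 was in the cluster from Vmn1r55 to Vmn1r65 on chromosome 7, where bodies had 16.3% and the sequence between them 16.8%. That cluster contains the long annotated body of Vmn1r63, which alone holds 5.85 kb of the covered receptor sequence.

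**Figure D2:**
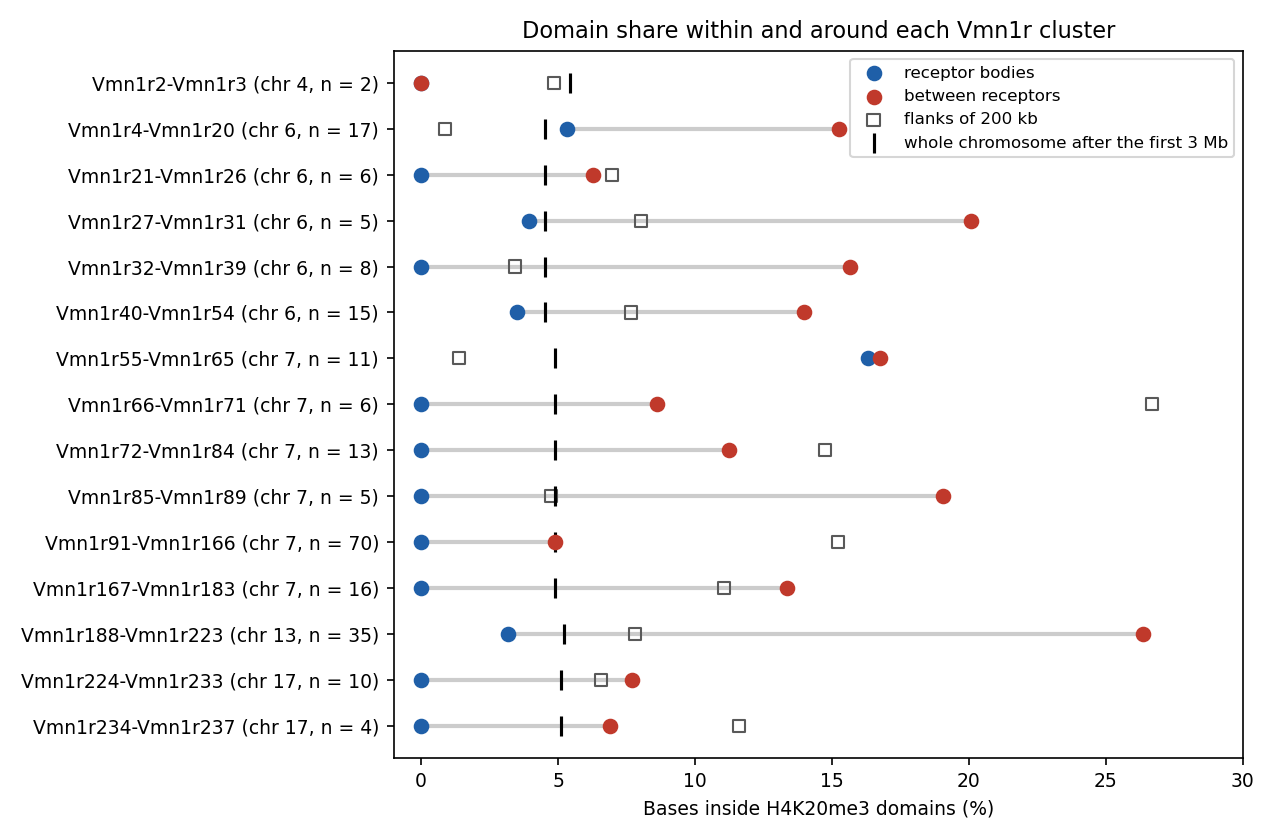
Share of bases inside H4K20me3 domains (horizontal axis, %) for each cluster, by chromosome and number of receptors n. Blue points are receptor bodies, red points the sequence between receptors, open squares the 200 kb on either side without receptor bodies, and vertical ticks the whole chromosome after the first 3 Mb. Red points lie to the right of blue points in 14 of 15 clusters and reach 26.4% on chromosome 13.

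A comparison at equal length gave the same order, but its windows stand at the point of each gap farthest from both receptors. It thus does not set bodies against the sequence right beside them, for which shares are given further below. For each pair of neighbouring receptors, a window as long as the left receptor was placed in the middle of the gap, which was done for the 204 of 208 gaps that are at least 3 times as long as that receptor. Of the 204 middle windows, 40 (19.6%) met a domain, while 5 of the 204 left receptors did (2.45%). The 4 gaps left out follow the long bodies of Vmn1r4, Vmn1r5, Vmn1r14 and Vmn1r63. All of these but Vmn1r4 met a domain, so the rule lowered the count of left receptors. On chromosome 13 the counts were 13 middle windows and 2 receptors of 34, on chromosome 7 they were 16 and 0 of 114, on chromosome 6 they were 9 and 3 of 43, and on chromosome 17 they were 2 and 0 of 12. The 0 on chromosome 7 comes from how pairs were built. Of the 2 receptors there that met a domain, Vmn1r63 was left out for its length. The other, Vmn1r65, is the last of its cluster and so never a left receptor. Gaps between receptors had a median length of 32.5 kb, and 110 of the 208 (52.9%) contained a domain. Of the 31 gaps of 10 to 20 kb, 8 had one, compared with 66 of 125 gaps of 20 to 50 kb and 36 of 51 longer gaps. The single shorter gap had none. The gap with the most domains, 9, ran from Vmn1r212 to Vmn1r213 on chromosome 13, where they covered 56.4% of 126.9 kb.

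Domain coverage was lowest beside the receptors and highest at an intermediate distance. Bodies of all 228 receptors had 3.98% of their bases in domains. For receptors of up to 2 kb alone, bodies had 1.46% and the first 1 kb around them 1.85%. In the first 1 kb around all receptor bodies 2.32% of bases lay in domains, then 2.76% from 1 to 2 kb, 5.56% from 2 to 5 kb and 10.9% from 5 to 10 kb. The share was greatest from 10 to 20 kb, at 17.5%, and was 8.67% at 100 to 200 kb. All protein-coding genes had a flatter profile, with 1.80% in the first 1 kb and 7.35% from 10 to 20 kb. The 217 domains that touched no receptor were a median of 11.5 kb from the nearest one (quartiles 6.36 and 19.8 kb), and 5 of them came within 1 kb. Shares were alike on both sides of the receptors. Among the 205 receptors with a known strand, 2.22% of the first 1 kb upstream and 2.49% of the first 1 kb downstream lay in domains, and from 10 to 20 kb the shares were 15.4% and 14.2%.

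**Figure D3:**
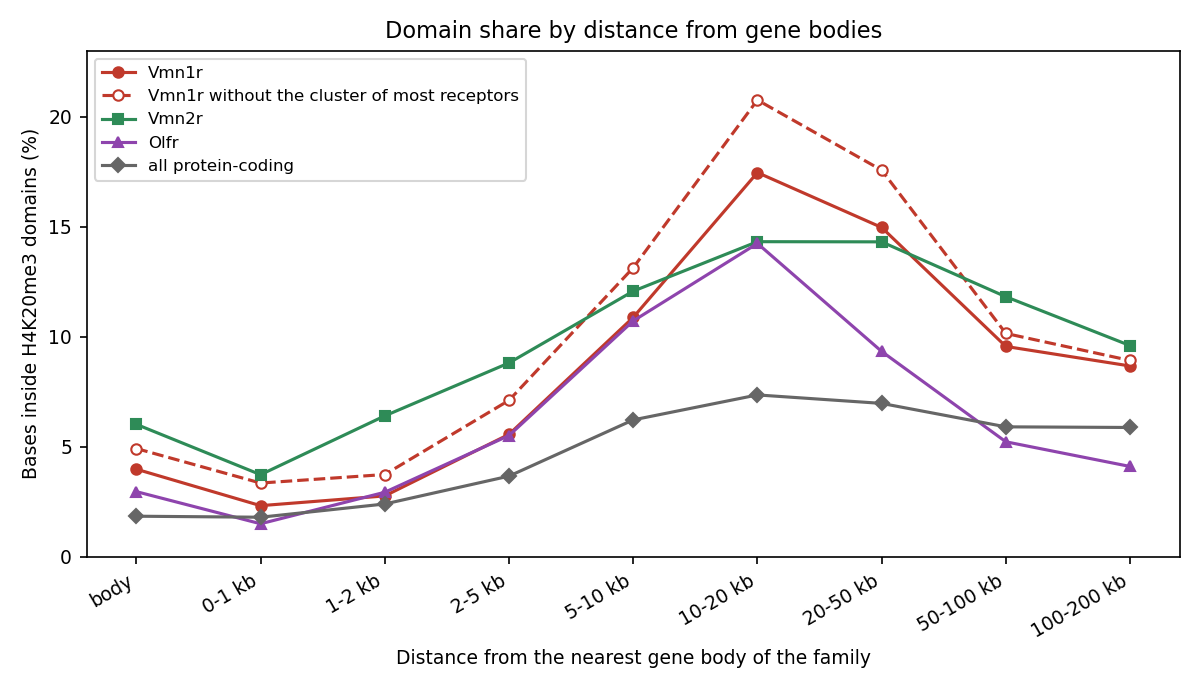
Share of bases inside H4K20me3 domains (vertical axis, %) in gene bodies and in rings at increasing distance from the nearest body of each family (horizontal axis, kb). Lines stand for Vmn1r receptors, the same without the cluster of 70 receptors, Vmn2r and Olfr receptors and all protein-coding genes. The Vmn1r line rises from 2.32% in the first 1 kb to 17.5% at 10 to 20 kb, and to 20.8% without the cluster of 70.

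Other chemosensory families showed a profile of similar shape. Olfr genes, which encode olfactory receptors with short coding sequences, had 2.98% of bodies and 9.21% of the sequence between them in domains over 47 clusters. For Vmn2r genes, which encode the larger type 2 vomeronasal receptors of other vomeronasal neurons, the shares were 6.17% and 14.4% over 21 clusters. By gene, 39 of 121 Vmn2r genes (32.2%) and 31 of 1099 Olfr genes (2.82%) met a domain. Vmn2r bodies have a median length of 24.7 kb, so their gene count and that of Vmn1r receptors are not on one scale. Middle windows met a domain in 11.5% of 973 Olfr pairs against 1.95% of the left receptors, and in 44.7% of 38 Vmn2r pairs against 21.1%. The length rule kept only these 38 pairs from the 113 Vmn2r genes in clusters. Their left receptors met a domain less often than the 32.2% of the whole family. The differences between the families were not tested.

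The clusters differed widely in how much domain sequence they held. The chromosome 13 cluster, from Vmn1r188 to Vmn1r223 (chr13:22087878-23250323), was the richest, with 48 domains over 1162 kb and 26.4% of the sequence between its 35 receptors covered, against 5.21% of the chromosome and 7.80% of the 200 kb on either side. In 2 smaller clusters, Vmn1r27 to Vmn1r31 on chromosome 6 (chr6:58215106-58472878) and Vmn1r85 to Vmn1r89 on chromosome 7 (chr7:13084289-13220289), the between-receptor share was 20.1% and 19.1%. The other chromosome 6 clusters stood at 15.3% (Vmn1r4 to Vmn1r20), 15.7% (Vmn1r32 to Vmn1r39), 13.97% (Vmn1r40 to Vmn1r54) and 6.28% (Vmn1r21 to Vmn1r26). Among the other chromosome 7 clusters, Vmn1r55 to Vmn1r65 had 16.8%, Vmn1r167 to Vmn1r183 13.4%, Vmn1r72 to Vmn1r84 11.2% and Vmn1r66 to Vmn1r71 8.60%. The chromosome 17 clusters had 7.72% (Vmn1r224 to Vmn1r233) and 6.88% (Vmn1r234 to Vmn1r237). Apart from the pair Vmn1r2 and Vmn1r3, at 0, the lowest share was the 4.89% of Vmn1r91 to Vmn1r166 on chromosome 7.

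The between-receptor share exceeded that of the whole chromosome in 13 of 15 clusters, and pooled it stood 7.02 percentage points above the chromosomes, weighted by cluster length, or 10.62 points without the cluster of 70 receptors. Against the 200 kb flanks it was higher in 9 of 15 clusters, with pooled shares of 11.9% and 8.79%. Flanks were richer than the cluster itself in the other 6, among them Vmn1r66 to Vmn1r71, with 26.7% in the flanks, and Vmn1r91 to Vmn1r166, with 15.2%. Domains in the clusters were somewhat wider than elsewhere, with a median of 3.75 kb against 2.85 kb over autosomal domains that do not begin at the first base, and 24 (10.62%) exceeded 10 kb, against 6.61%. The widest, of 34.6 kb (chr7:20284951-20319600), touched no receptor, and neither did the next, of 30.1 kb (chr7:11794051-11824200).

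The cluster of most receptors, Vmn1r91 to Vmn1r166 on chromosome 7 (chr7:20101158-23251682), held all of its domains toward one end. Its first 1022 kb held 27 receptors and 24 domains that covered 14.7% of the sequence. The last 2128 kb, from position 21123451 onward, held 43 receptors from Vmn1r122 to Vmn1r166 and no domain, the longest domain-free stretch of any cluster. The first part also held a long stretch without a domain, 345.6 kb (chr7:20763901-21109500) with 10 receptors from Vmn1r112 to Vmn1r121, and only 2 domains lay between the 2 stretches. Receptors of the last 2128 kb were a median of 602.1 kb from the nearest domain, against 10.99 kb in the first part, and Vmn1r251 was the farthest at 1077 kb. The parts were divided at the end of the last domain, so this contrast in distance follows largely from the division. None of the 70 receptors met a domain. Without this cluster, 10 of 158 receptors (6.33%) met one, and the between-receptor share rose from 11.9 to 15.5%.

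Receptors of this cluster are near copies of each other upstream of the gene. For each receptor the 250 upstream bases were compared with those of every other receptor without gaps at offsets of up to 20 bases, so copies shifted further were missed. With any offset that left 125 bases to compare, the counts of receptors at 90% or more were the same. In this cluster 63 of 68 receptors had a best match of at least 90% identity, against 14 of 137 elsewhere. High identity was present in both parts, in 24 of 26 receptors where domains occurred and in 39 of 42 where none did, and the median best match was 100% in each. Over all 205 receptors, 21 of the 77 with a match of at least 90% lay within 10 kb of a domain (27.3%), against 65 of the other 128 (50.8%), and the median distances were 97.0 and 9.89 kb. Outside this cluster, 8 of the 14 receptors with a match of at least 90% and 65 of the other 123 lay within 10 kb of a domain, shares of 57.1 and 52.8%. Whether reads from the copies could be placed, and the part this has in the missing domains, was not tested. The most frequent upstream sequence, identical in 6 receptors of the cluster (Vmn1r111, Vmn1r118, Vmn1r131, Vmn1r138, Vmn1r166 and Vmn1r257), is shown as it stands before Vmn1r111 to illustrate these copies.
Vmn1r111, chr7:20703217-20703466, minus strand: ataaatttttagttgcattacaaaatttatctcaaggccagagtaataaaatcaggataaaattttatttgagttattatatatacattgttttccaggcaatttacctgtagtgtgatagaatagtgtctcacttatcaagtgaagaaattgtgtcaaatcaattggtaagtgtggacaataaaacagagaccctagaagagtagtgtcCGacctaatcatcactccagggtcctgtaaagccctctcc
It has 34% G and C and 1 CG pair, and none of the 6 windows met a domain.

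**Figure D4:**
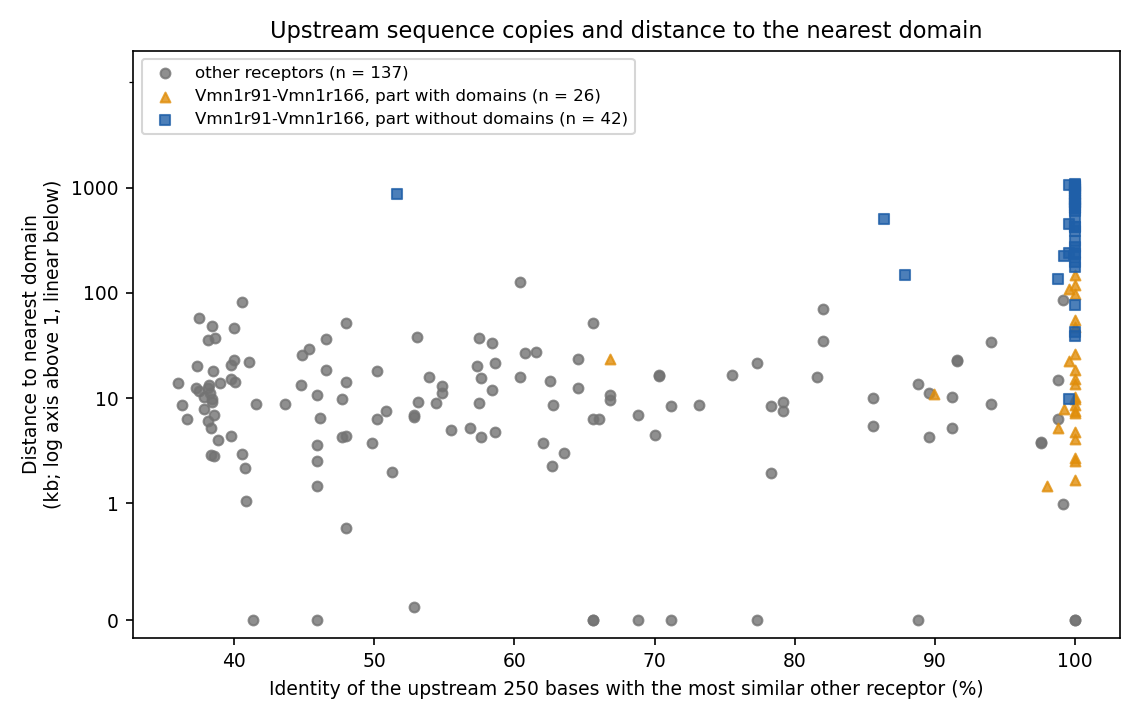
Identity of each receptor's upstream 250 bases with the most similar other receptor (horizontal axis, %) against the distance to the nearest domain (vertical axis, kb, logarithmic above 1 and linear below). Points are 205 receptors, in grey outside the cluster of 70, as orange triangles in its part with domains and as blue squares in its part without. Both parts gather near 100% identity, with median distances of 10.99 and 602.1 kb. The parts were divided by where the domains lie, so the contrast in distance follows largely from the division.

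Vmn1r pseudogenes, which no longer encode a full receptor, met domains chiefly on chromosome 13. Of 137 autosomal pseudogenes of the family, 12 (8.76%) met a domain, 8 of them among the 39 on chromosome 13, 3 among the 32 on chromosome 6, 1 among the 12 on chromosome 17 and 0 among the 46 on chromosome 7. Within the chromosome 13 cluster, Vmn1r-ps95, Vmn1r-ps111, Vmn1r-ps114, Vmn1r-ps123, Vmn1r-ps125 and Vmn1r-ps130 lay wholly inside domains. Among members of 0.8 to 1.2 kb on that chromosome, 4 of 12 pseudogenes and 2 of 34 receptors met a domain. Outside chromosome 13 the counts at this length were 2 of 55 pseudogenes (3.64%) and 3 of 165 receptors (1.82%). Of the bases of chromosome 13 pseudogenes of 0.8 to 1.2 kb, 26.7% lay in domains, against 3.28% for receptors of that length there. The pseudogene share is near the 26.4% of all sequence between receptors in the chromosome 13 cluster. No share over all autosomal pseudogenes was set beside these counts. The difference between pseudogenes and receptors was not tested.

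Of 27 genes of vomeronasal signalling and neuron identity, 6 (22.2%) met a domain, beside the 13.9% of all protein-coding genes. Gene length was not matched in this comparison. Neurod1, a neuronal differentiation factor, had 18.75% of 4.00 kb covered. Coverage was small in Ano2, a calcium-activated chloride channel gene (2.06% of 349.7 kb), in Robo2, an axon guidance receptor gene (1.37%), and in Gnao1, the G protein subunit that type 2 receptors use (1.04%). Adcy2, an adenylyl cyclase gene, and Kirrel3, which encodes an adhesion protein of vomeronasal axons, had 0.751% and 0.622%. Gnai2, the subunit used by type 1 receptors, and Trpc2, the transduction channel, met none. Neither did any of the 9 nonclassical MHC genes listed for vomeronasal neurons (H2-M1, H2-M9, H2-M10.1 to H2-M10.6 and H2-M11).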

How the data were processed

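The authors' deposited file is 1 list of domains with chromosome, start and end in bases and no score. Per its name, the domains come from RSEG, which segments the genome for broad marks. No source used here gives the version, the threshold or the libraries. The submitters' processing notes name, without a role, the tools bedtools, deepTools, SAMtools 1.1 and Bowtie2 2.3.4.1 and the builds mm10, mm9, GRCm38 and dm6. Of 28210 domains, 28209 have both ends on a grid of 150 bases, so an edge near a receptor is no finer than that. Contig names are those of mm10. Gene bodies came from a RefSeq table of GRCm38.p6, the same build. Genes placed before 3 Mb were left out.

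A receptor met a domain when they shared at least 1 base. Receptors whose gap was at most 200 kb formed a cluster. Covered bases were counted over unions of bodies. Since all samples share 1 list, groups, replicates and depth enter no comparison, and everything is a count or a share without a test. The members and lists were chosen with earlier results of these data known. The middle windows, the split at 2 kb, the motifs and the upstream comparisons were chosen after values were seen. Genes named are all Vmn1r genes that met a domain, the 5 nearest without one, first and last receptors of clusters and listed genes that met a domain; Vmn1r251, Vmn1r212, Vmn1r213, Vmn1r112, Vmn1r121, Vmn1r122, Gnai2, Trpc2, the H2-M genes, the pseudogenes, the other genes inside clusters, the Fpr and Ms4a genes and the receptors with the printed shared sequence were named in addition, after their values were seen. One gene of the vomeronasal list is not reported here. Alternatives were merged domains, wider domains, pseudogenes, other cluster distances, padded bodies, masked genes and left-out clusters. The interval functions were tested on simulated data. Software was matplotlib 3.10.9, scipy 1.17.1, pandas 2.3.3 and numpy 2.4.6 under Python 3.11.15.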

Additional observations from a re-analysis of the deposited data

How the results depend on the processing

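The between-receptor share stayed above the receptor-body share in all 11 alternatives tried, at 5.89 to 10.7 percentage points, and above the chromosome share in all 10, at 5.02 to 10.62 points. The number of clusters that met a domain ranged from 11 to 20 as clusters were drawn differently or left out. With pseudogenes included, 13 of 19 clusters met one. The number of receptors that met a domain was 22 with pseudogenes included, 3 for at least 50% of the body covered and 5 for receptors of up to 2 kb. In what follows each alternative gives the body share, the between-receptor share, its excess over bodies and its excess over the chromosome. Domains closer than 5 kb merged gave 4.50%, 13.4%, 8.85 and 8.10 points. Domains at or above the median width of 3 kb gave 2.64%, 10.3%, 7.62 and 6.33. Pseudogenes included gave 4.91%, 11.5%, 6.61 and 6.64. Without the chromosome 13 cluster, which holds the most domain bases, they were 3.97%, 9.86%, 5.89 and 5.02. Without the cluster of 70 receptors they were 4.82%, 15.5%, 10.7 and 10.62, and for receptors of up to 2 kb 1.25%, 11.6%, 10.3 and 6.69. The excess over the chromosome in the first of these and the body share in the second moved by over 1.5 times. Both of these were added after the data were seen. With neighbours within 100 kb, the between-receptor share was 11.85% and the excesses were 8.11 and 6.98 points. With neighbours within 500 kb, the between-receptor share was 11.88%. With 1 kb added at both ends, the body share was 2.91% and the excess over bodies 9.45. Outside other annotated genes, the between-receptor share was 12.5% and the excesses 8.62 and 7.62. The median excess over bodies across clusters was 9.92 points, and the excess over chromosome sequence outside protein-coding genes was 5.08. No paired analysis was possible because the list names no sample, and for the same reason no replicate could be left out. The depth of the libraries is unknown here, so a stretch without a domain is one where none was called, not one shown to lack the mark.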

Other observations

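The Vmn1r clusters held 229 other annotated genes beside their 223 receptors, of which 97 carry Vmn1r pseudogene symbols. Of 27 other protein-coding genes, 2 met a domain (7.41%). The 27 include V1ra8 and V1rd19, which the symbol rule did not take as receptors and which met no domain. They also include predicted genes of about receptor length, such as Gm16451 (0.924 kb), Gm10670 and Gm10665 (both 0.966 kb), which met no domain. All 27 count as sequence between receptors, and whether the predicted genes encode receptors was not determined. Gm11295, a predicted gene on chromosome 13, had 98.5% of its 0.654 kb covered, and Nlrp4b, of the Nlrp family of germline-expressed genes, had 9.20% of its 42.4 kb covered. Of 96 pseudogenes with other symbols, 11 met a domain (11.5%), and their families were not determined. Among the 11 were Gm8745, Gm18195 and Gm18206, which lay wholly inside domains in the cluster from Vmn1r167 to Vmn1r183. Long noncoding RNA genes numbered 5, and 3 of them met a domain, with Gm38946 covered whole, Gm30645 over 37.1% and Gm38947 over 34.3%. No share over all autosomal pseudogenes or long noncoding RNA genes was set beside these counts. Whether the counts are high or low for their class was therefore not determined.

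Among protein-coding genes 13.9% met a domain, and 2.54% of those of 0.8 to 1.2 kb outside the Vmn1r, Vmn2r and Olfr families. Of 15 Taar genes, which encode trace amine receptors of the nose, 35 Tas2r genes for bitter taste receptors and 3 Tas1r genes for sweet and umami taste receptors, none met a domain. Among 7 Fpr genes, formyl peptide receptors of which some are used in vomeronasal neurons, only Fpr3 did, with its 1.22 kb covered whole. Of 21 Ms4a genes, 4 met a domain, from Ms4a10 (9.65% covered) and Ms4a14 (16.8%) to Ms4a6d (21.4%) and Ms4a4c (30.6%). These counts are small and carry no test.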
